A study of Caenorhabditis elegans with 2 samples.

Results

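The heterochronic genes of Caenorhabditis elegans are the regulators that tell larval cells which stage they are in. The 8 examined here are lin-14, lin-28, lin-29, lin-41, lin-42, lin-46, hbl-1 and daf-12, out of 19973 protein-coding genes in the annotation of the WBcel235 assembly, which is ce11. They are listed by name, with no threshold on a measured value, although the list was drawn up with earlier results of these data known. A region was counted for a gene when its summit, the base of highest signal in the region, lay between 5000 bp upstream of the gene start and the gene end. The measurements are chromatin immunoprecipitation and sequencing (ChIP-seq) of ZAG-1, the worm's ZEB-family transcription factor, known for its role in neurons. The series has 1 group of 2 biological replicates, whole L4 larvae of mixed sex from strain OP83, in which unc-119(ed3) III is combined with the transgene wgIs83, an insertion that targets zag-1 and whose product carries eGFP. Both replicates share the mutation and the transgene, the age of the worms is labelled unknown, and no control group is part of the data used here. The promoter that drives the tagged protein is not stated in the labels, and control libraries that they mention were not analysed here. Whole animals were used, so the cells in which a region was bound are not known.

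The authors listed 4010 regions from both replicates pooled, 11750 from replicate 1, 30000 from replicate 2, and 246 peaks that passed their reproducibility analysis (irreproducible discovery rate, IDR). Each region has a signal value of the authors' own, which is used here only to rank regions within a list, with rank 1 the strongest. The pooled, replicate 1 and replicate 2 lists run down to signal values of 22.7, 12.3 and 5.74. Because they were made as input for the IDR analysis and hold background as well as peaks, a listed region is not by itself a binding site. The significance score, −log10 of the authors' q-value, ran from 0.0167 to 2.39 in the pooled list and from 1.46 in the IDR list. At the 8 genes the highest pooled scores were 1.75 at the daf-12 IDR peak and 1.42 at lin-14. The next was 0.793, at lin-41. All their pooled regions except the daf-12 peak thus scored below every IDR peak. The lists contain no read counts, so the depth behind each value is unknown.

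In this pathway LIN-14 and LIN-28 hold early larval programmes, HBL-1 acts in the step after them, and the microRNAs lin-4 and let-7 and their relatives repress these genes as larvae grow. LIN-41, an RNA-binding protein and a target of let-7, holds back LIN-29, the zinc-finger transcription factor that drives the larval-to-adult switch of the skin. LIN-42, a relative of Period proteins, acts in the cycle of moults, and LIN-46, a gephyrin-like protein, acts downstream of LIN-28. DAF-12 is a nuclear hormone receptor that couples steroid signals to stage progression and to the choice between growth and dauer arrest.

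The sequences at the centre of the results are the 201 bases around the summits of the strongest regions at daf-12, lin-14, lin-42 and hbl-1, read from the WBcel235 genome and shown because the report returns to them gene by gene. Each runs 5′ to 3′ on the strand of its gene. Capitals mark matches, on either strand and merged where they overlap, to 5 words chosen with earlier results of these data known. These are the repeats GAGAGA and CACACA, the word CAGGTA with its variant CAGGTG counted together, then CGTCTC and also ACGCAG. Not printed is the pooled region of lin-41, at rank 475 stronger than those of hbl-1 (804) and lin-42 (1674). It is the only pooled region of the timing genes with CAGGTA or CAGGTG, so the printed set is not a full picture of the words.
daf-12, IDR peak, chrX:10637531-10637731, plus strand: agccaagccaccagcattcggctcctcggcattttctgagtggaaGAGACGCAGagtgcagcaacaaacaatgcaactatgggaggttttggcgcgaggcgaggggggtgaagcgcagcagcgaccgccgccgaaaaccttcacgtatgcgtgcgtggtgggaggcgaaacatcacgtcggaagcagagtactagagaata
lin-14, strongest pooled region, chrX:11472561-11472761, plus strand: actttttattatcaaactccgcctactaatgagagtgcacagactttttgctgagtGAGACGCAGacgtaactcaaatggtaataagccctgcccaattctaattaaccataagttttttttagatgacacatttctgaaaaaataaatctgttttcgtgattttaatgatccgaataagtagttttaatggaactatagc
lin-14, strongest region of replicate 2, chrX:11473150-11473350, plus strand: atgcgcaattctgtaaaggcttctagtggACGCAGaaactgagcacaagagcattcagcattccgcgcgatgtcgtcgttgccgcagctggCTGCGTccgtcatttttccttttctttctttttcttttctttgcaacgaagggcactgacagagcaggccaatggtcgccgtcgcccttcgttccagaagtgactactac
lin-42, strongest pooled region, chrII:1247041-1247241, minus strand: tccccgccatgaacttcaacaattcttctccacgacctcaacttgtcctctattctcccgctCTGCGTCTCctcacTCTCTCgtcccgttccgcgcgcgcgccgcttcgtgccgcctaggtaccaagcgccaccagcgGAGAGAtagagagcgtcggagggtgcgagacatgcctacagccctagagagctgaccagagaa
hbl-1, strongest pooled region, chrX:5818588-5818788, plus strand: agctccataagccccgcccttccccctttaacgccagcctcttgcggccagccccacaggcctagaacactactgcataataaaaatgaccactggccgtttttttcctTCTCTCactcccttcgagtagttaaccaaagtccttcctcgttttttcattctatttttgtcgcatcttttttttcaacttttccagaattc

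In the sequences of daf-12, lin-14 (pooled region) and lin-42, the words CGTCTC and ACGCAG overlap to form GAGACGCAG or, at lin-42, its reverse complement. This 9-base word was singled out after the sequences were seen, so its count is a description. It was present within 100 bp of the summit in 3 of the 16 pooled regions of the timing genes, against 4.39% of all 4010 pooled regions and 19.9% of the 246 IDR peaks. Its centre lay 51 bp from the summit at daf-12, 40 bp at lin-14 and 34 bp at lin-42. Of the other words, counted the same way and on both strands, GAGAGA was in 6 of the 16 (20.4% of all pooled regions), CGTCTC in 5 (12.2%), ACGCAG in 5 (10.5%) and CACACA in 2 (14.6%). CAGGTA and its variant CAGGTG, which ZEB-type zinc fingers recognise, were found in 1 of the 16, upstream of lin-41, against 8.73% of all pooled regions and 7.72% of IDR peaks. A match is a description of letters and not a binding site.

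Across the 8 genes, 1 had an IDR peak, 6 a pooled region, 7 a replicate 1 region and 7 a replicate 2 region. By the same rule these lists reached 2.21%, 25.2%, 57.2% and 86.3% of all protein-coding genes, so the replicate 2 count was close to its background. A region of each replicate was present at 6 of the 8, against 52.3% of genes, and regions of both replicates overlapped by at least 1 bp at 5 of the 8, against 25% of genes. The timing genes are long, with a median window of 17.7 kb against 7.03 kb for all genes, and a longer window holds more regions. Among genes with windows of 20 kb or more, 63.1% had a pooled region and 4.21% an IDR peak. All 4 timing genes of that size (lin-14, lin-29, lin-42 and daf-12) had a pooled region and 1 had an IDR peak.

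**Figure D1:**
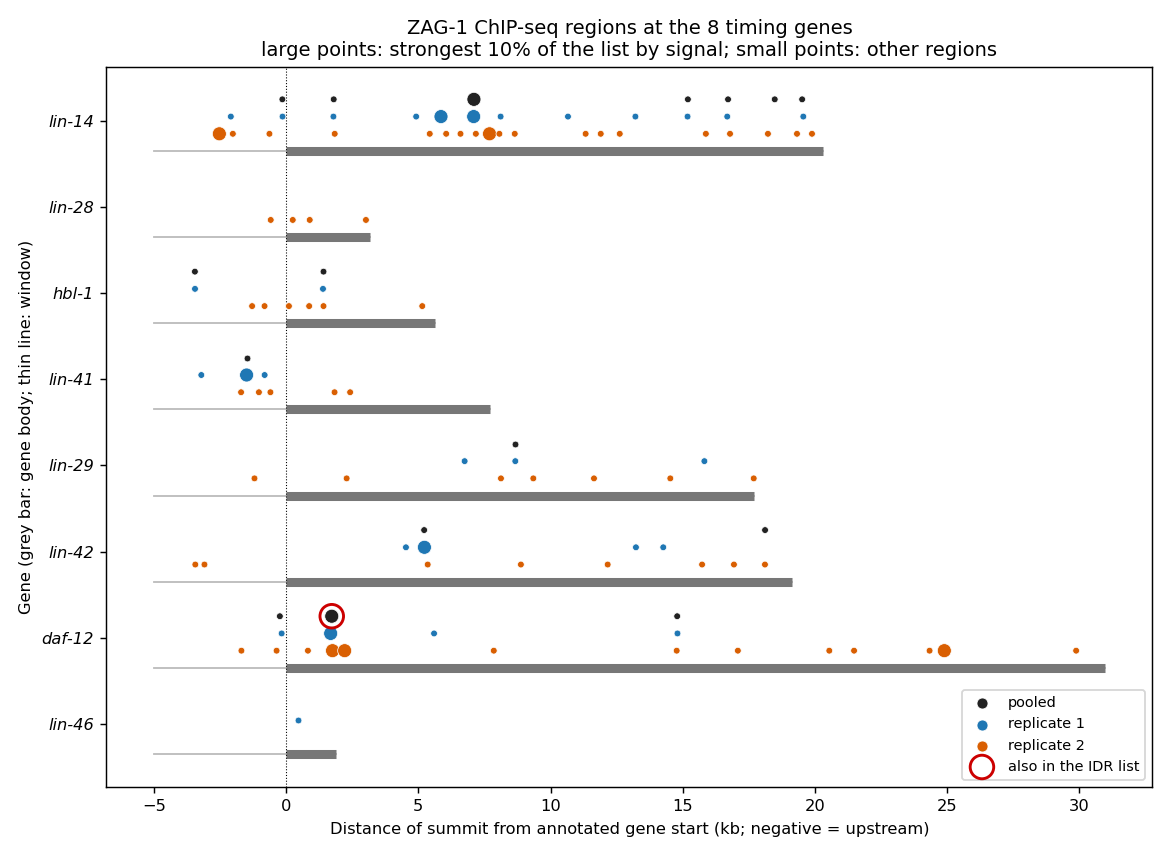
Summit positions at the 8 genes, in kb from the annotated gene start (x axis; negative is upstream), by gene and list (y axis). Large points are regions in the strongest 10% of their list, small points are all others, and the ring marks the IDR peak. The gene body is a thick grey bar and the upstream part of the window a thin line. Only daf-12 has an IDR peak, and lin-28 and lin-46 have no pooled region.

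Per length, the pooled list held 1.09 summits per 10 kb in the windows of the 8 genes together, against 0.407 over the windows of all protein-coding genes. Replicate 1 had 1.98 against 1.20, and replicate 2 had 4.23 against 2.96. Pooled summits were densest at lin-14, with 2.77 per 10 kb, and hbl-1, with 1.88 per 10 kb, both on chromosome X. The 3 genes on X (lin-14, hbl-1 and daf-12) held 12 of the 16 pooled summits, or 1.67 per 10 kb, against 0.454 for all genes on X. lin-14 alone held 7 of these, so the values for X and for the 8 genes together rest largely on it. daf-12, also on X, had 0.834 per 10 kb, close to autosomal lin-42 at 0.829. The 5 autosomal timing genes held 4, or 0.536 per 10 kb, against 0.399 for all autosomal genes. No test was made of these densities, since the series has no second group and neighbouring regions of a gene are not independent.

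**Figure D2:**
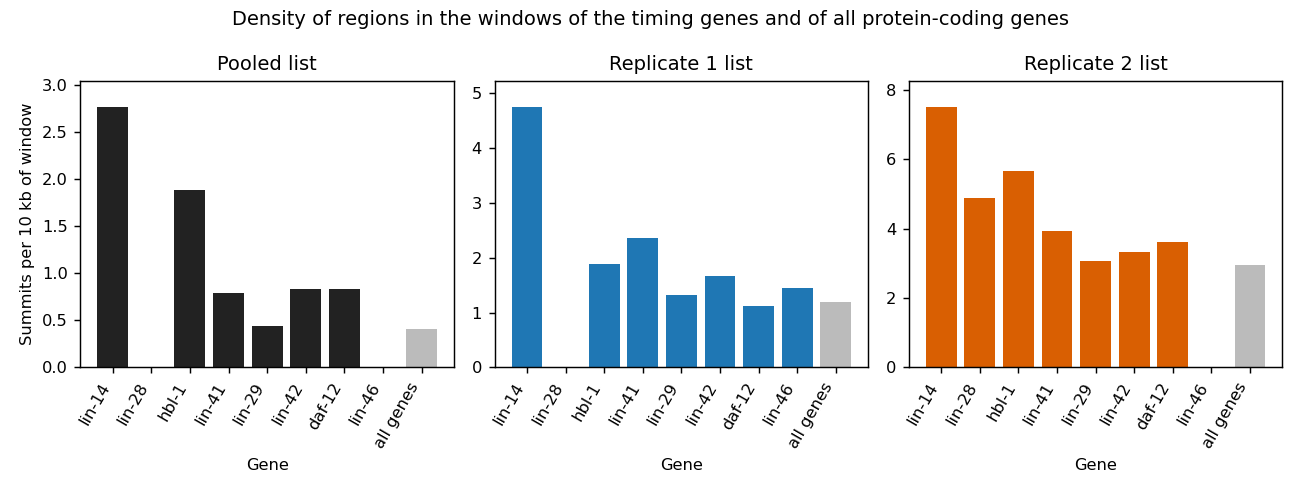
Summits per 10 kb of window (y axis, a separate scale for each panel) for each timing gene and, in grey, over the windows of all protein-coding genes, in the pooled, replicate 1 and replicate 2 lists. Bars are single values without error. The bar of lin-14 is the tallest in all 3 panels, at 2.77, 4.74 and 7.51.

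lin-14, the gene of the early larval programme that lin-4 represses, had the most regions of the 8. It lies at X:11465560-11485871 on the plus strand, and its window held 7 pooled summits, 12 of replicate 1 and 19 of replicate 2. Counted without a cut on significance, only 7 protein-coding genes had 7 or more pooled summits in their windows. The others were T28B11.1 with 10, rhgf-3 and unc-44 with 9 each, W06H8.6 and pde-4 with 8 each, and din-1, described below, with 7. Per length, lin-14 ranked 3 among the 404 genes with windows of 20 kb or more, at 2.77 pooled summits per 10 kb against their median of 0.375. The other timing genes of that size ranked lower, daf-12 at 76 (0.834 per 10 kb), lin-42 at 77 (0.829) and lin-29 at 165 (0.440).

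The strongest pooled region of lin-14, X:11472491-11472830, lay in an intron 7101 bp into the gene. Its signal value was 44.0 and its pooled rank 275, outside the IDR set, which ends at pooled rank 246 with a signal value of 45.4. In replicate 1 the region there ranked 75, with a signal value of 44.4, but in replicate 2 the overlapping region ranked 16825. The strongest region of replicate 2, with rank 296 and a signal value of 20.2, had its summit 7690 bp into the gene, 599 bp from that of replicate 1, and overlapped no region of replicate 1. Both replicates placed their strongest lin-14 region in intronic sequence, but not on the same bases, and the sequences of the pooled and replicate 2 regions are shown above. A second region of replicate 2 within the strongest 10% of its list, rank 1523, lay 2529 bp upstream of the gene start, where neither the pooled list nor replicate 1 had an overlapping region.

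The other 6 pooled regions of lin-14 were weaker, with significance scores of 0.0202 to 0.411 against 1.42 for the strongest. One, at rank 2017, lay 145 bp upstream of the start and was matched by rank 1290 in replicate 1 and by no region in replicate 2. The next, in an intron 1797 bp into the gene and with pooled rank 795, was matched in both replicates, at ranks 1504 and 5629. The remaining 4 lay in the 3′ part of the gene, and 2 of them were matched in both replicates. The first was in an intron 15194 bp into the gene (pooled rank 2658), 393 bp from the start of the shorter lin-14 transcript. It was followed by an intron at 16713 bp (rank 3330), a coding exon at 18479 bp (rank 3952) and the 3′ UTR at 19516 bp (rank 1599). With 1 start per gene, the nearest protein-coding gene start to these 4 was that of spp-9, between 2708 and 7030 bp away. The summits lie inside lin-14, however. The start of the shorter lin-14 transcript was nearer than that of spp-9 to all but the last. It was 393, 1912 and 3678 bp from those, and 4715 bp from the last. In all, 7 pairs of replicate regions overlapped at lin-14, with summits 46 to 239 bp apart.

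daf-12 was the only timing gene with an IDR peak. The peak, X:10637461-10637800, had a signal value of 49.0 and ranked 197 of 246. It was matched by rank 255 in replicate 1, with a signal value of 29.4, and by rank 613 in replicate 2, with a signal value of 17.2, so it lay in the strongest 2.17% and 2.04% of those lists. The summits of the replicates were 70 bp apart. The pooled list had 2 further regions at daf-12, 240 bp upstream of the start (rank 2033) and in an intron 14789 bp into the gene (rank 790), and both were matched in each replicate. Replicate 2 had another strong region, rank 982, 2211 bp into the gene. It also had one at rank 2636 whose summit was on the start of the transcript F11A1.3b.1, 24894 bp into the gene, where replicate 1 had none.

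Where the daf-12 peak lies depends on the gene model. In the Ensembl annotation daf-12 starts at X:10635908 because of 1 transcript, F11A1.3e.3, among 10, and the peak is in an intron 1723 bp after that start. In the RefSeq annotation of the same assembly the gene starts at 10644409, 8501 bp further along, and the peak lies 6778 bp upstream of it. No other protein-coding gene start was nearer to the peak in the Ensembl annotation. By RefSeq bounds the peak falls outside the 5000 bp window, the number of timing genes with an IDR peak is 0, and the best pooled rank of daf-12 is 790.

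**Figure D3:**
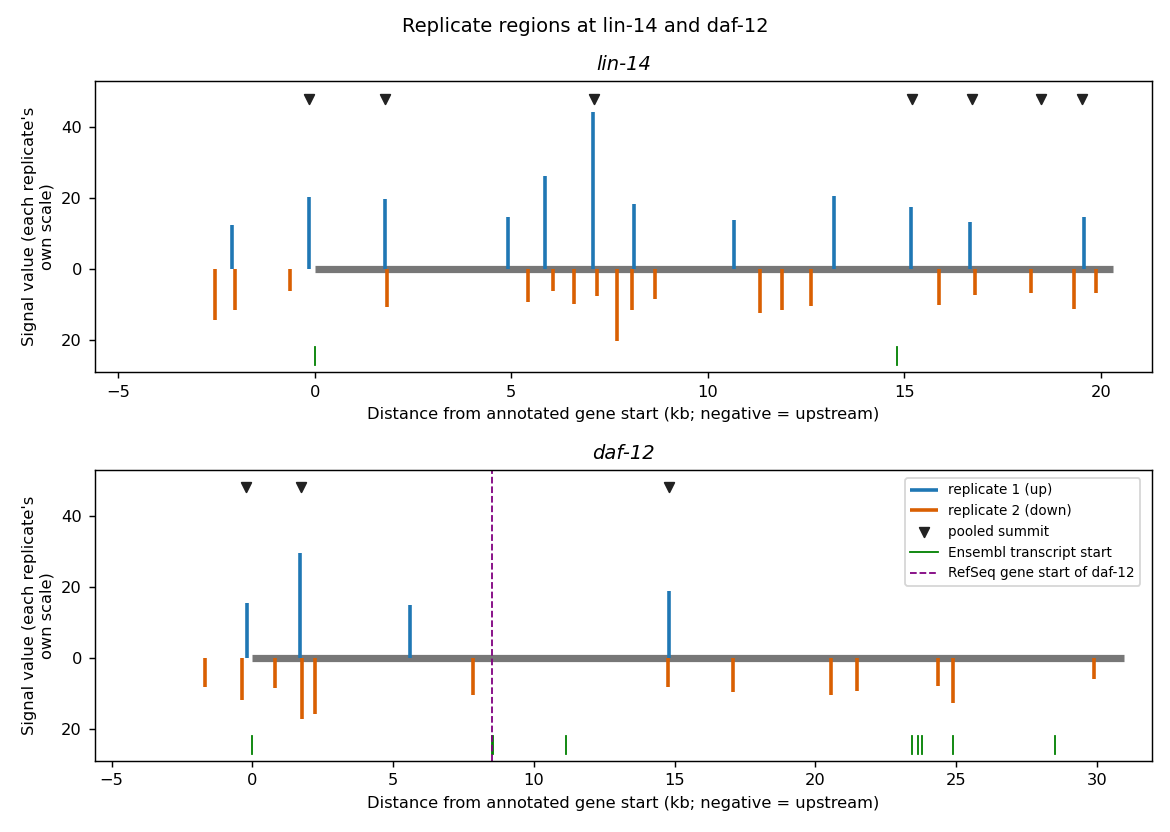
Signal values of replicate 1 (upward) and replicate 2 (downward) regions at lin-14 (top) and daf-12 (bottom), each replicate on its own scale, against distance in kb from the annotated gene start. Triangles are pooled summits, green ticks Ensembl transcript starts, the grey bar the gene body and the dashed line the RefSeq start of daf-12. At daf-12 both replicates have a strong region near 1.7 kb, while at lin-14 the tallest lines of the replicates, at 7091 and 7690 bp, do not coincide.

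hbl-1, which encodes a Hunchback-like zinc-finger transcription factor, lies at X:5822142-5827755 on the plus strand and had 2 pooled regions. The stronger, X:5818518-5818857, was 3454 bp upstream of the start, with a signal value of 31.8 and rank 804. It ranked 1250 in replicate 1, and the nearest replicate 2 summit was 2141 bp away. The other, in a coding exon 1411 bp into the gene and 421 bp from the start of the shorter transcript, had rank 1718. It was matched at rank 1974 in replicate 1 and 10527 in replicate 2, with the replicate 2 summit on the same base as the pooled one. Replicate 2 had 6 regions at hbl-1, of which this was the strongest, so the region that the pooled list ranked first was overlapped in replicate 1 and not in replicate 2.

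lin-41 and lin-28 encode RNA-binding proteins of the pathway. lin-41, at I:9334800-9342496 on the minus strand, had a single pooled region, I:9343809-9344148, 1483 bp upstream of its start and outside protein-coding genes. Its signal value was 36.6 and its pooled rank 475, the best of the 5 autosomal genes. It ranked 373 in replicate 1 and 3884 in replicate 2, whose summits were 209 bp apart. This was the region with the CAGGTA type of word, and it also held ACGCAG. lin-28, at I:8407630-8410804 on the minus strand, had no pooled and no replicate 1 region. Replicate 2 listed 4 regions there, of which the strongest ranked 6368 with a signal value of 10.4 in a 5′ UTR.

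lin-42, lin-29 and lin-46 are the other autosomal genes. At lin-42 (II:1233236-1252359, minus strand) the stronger of 2 pooled regions, II:1246971-1247310, was in an intron 5218 bp into the gene, at rank 1674. It ranked 639 in replicate 1 and 19006 in replicate 2. The other, in a coding exon 18113 bp into the gene and 379 bp from the start of the shortest lin-42 transcript, had rank 3556 in the pooled list and 4725 in replicate 2, with no overlapping region in replicate 1. At lin-29 (II:11917642-11935343, minus strand) the only pooled region, in an intron 8672 bp into the gene, ranked 3950 of 4010, near the end of the list. It was matched at rank 2459 in replicate 1 and by nothing in replicate 2, and no regions of the replicates overlapped at lin-29. lin-46, at V:12968855-12970730 on the plus strand and the shortest of the 8 genes, had only a replicate 1 region in an intron 440 bp after its start, at rank 10822 of 11750.

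**Figure D4:**
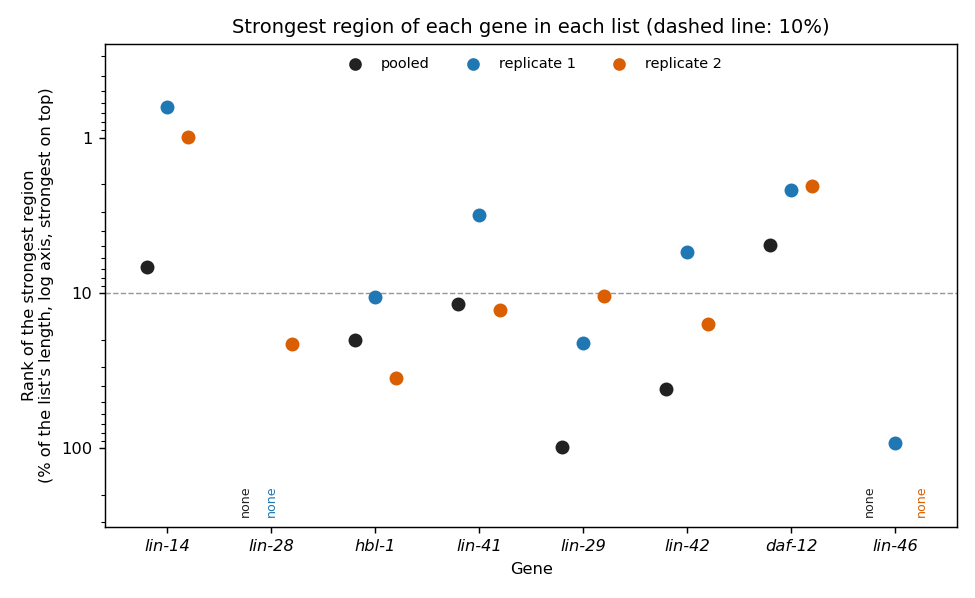
Rank of the strongest region of each gene as a percentage of the length of its list (y axis, log scale, strongest on top), for the pooled, replicate 1 and replicate 2 lists. The dashed line is at 10%, and "none" marks a list without a region for that gene. lin-14 and daf-12 lie above the line in all 3 lists, lin-41 and lin-42 in replicate 1 only, and lin-28, hbl-1, lin-29 and lin-46 in none. The share of all genes above the line is not shown.

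The replicates ranked the genes in different ways. In replicate 1 the strongest regions were those of lin-14 (rank 75), daf-12 (255), lin-41 (373) and lin-42 (639), each in the strongest 10% of the list. In replicate 2 only lin-14 (296) and daf-12 (613) were in the strongest 10%, followed by lin-29 (3126), lin-41 (3884) and lin-42 (4725). The lists hold 11750 and 30000 regions, so 10% reaches to a lower rank in replicate 1 than in replicate 2. At rank 1250, hbl-1 was just outside it in replicate 1. By best region, hbl-1 ranked 1893 of the 11427 protein-coding genes with a replicate 1 region. lin-29, just outside the 10% in replicate 2, ranked 4249 of 17235 genes with a region there. Many genes therefore reach the strongest 10% by the same rule, and their exact share is not given here. Longer windows also offer more chances of a strong region. Of the 29 replicate 1 regions at the 8 genes, 14 (48.3%) were overlapped by a replicate 2 region, against 34.4% of all replicate 1 regions. Of the 16 pooled regions, 10 (62.5%) were overlapped in both replicates, against 56.0% of all pooled regions. By annotation, 8 of the 16 pooled summits were in introns (31.4% of all pooled summits), 4 outside protein-coding genes (46.6%), 3 in coding exons (15.0%) and 1 in a 3′ UTR (4.61%). Intron length was not accounted for, and the timing genes are long. With 1 start per gene, the nearest protein-coding gene start was that of the timing gene itself for 12 of the 16. The other 4 were those in the 3′ part of lin-14, where the gene start of spp-9 was nearer.

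Further genes of the timing pathway were taken from a list of 32, of which 4 had an IDR peak and 20 a pooled region. Of its 25 protein-coding genes, 4 had an IDR peak and 15 a pooled region, beside the backgrounds of 2.21% and 25.2% above. Window length was not accounted for in these counts, and the list was chosen with earlier results of these data known. The 4 IDR peaks were stronger than that of daf-12. puf-9, a Pumilio-family gene, had the strongest, with a signal value of 81.3 and rank 48, 362 bp upstream of its start, and ranked 46 in replicate 1 and 90 in replicate 2. nhl-2, which encodes a TRIM-NHL cofactor of microRNAs, had rank 84 (replicates 98 and 92), with the summit 856 bp upstream but nearer to the start of tag-340, at 567 bp. ain-1, a GW182-family gene of the microRNA silencing complex, had rank 96 (replicates 123 and 110), 980 bp upstream. din-1, which encodes a co-repressor partner of DAF-12, had rank 136 (replicates 158 and 255), 1707 bp upstream. din-1 also had 6 other pooled regions, ranked 762 to 2791, and 20 regions of replicate 2 in its window.

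Of the 6 microRNA genes on that list, 4 had a pooled region, against 29.9% of the 261 annotated microRNA genes, and mir-48 and mir-241 among the 4 share theirs. mir-84, of the let-7 family, had rank 335, 2496 bp upstream of the hairpin gene, with ranks of 1349 in replicate 1 and 540 in replicate 2. Its let-7 family relatives mir-48 and mir-241 are neighbours, and their region, rank 413, lay 451 bp upstream of mir-241 and 2225 bp upstream of mir-48. It ranked 414 in replicate 1 and was overlapped by nothing in replicate 2. let-7 itself, annotated as a longer gene at X:14743590-14745321, had a region at rank 1348. That region lay 1798 bp upstream of the start of this annotation, not of the hairpin, and 184 bp from the start of C05G5.2. It had rank 497 in replicate 2 and no overlapping region in replicate 1. lin-4 and mir-237 had no pooled region, and lin-4 had 3 regions of replicate 2, the best at rank 941. The sequences upstream of mir-84 and of the pair mir-241 and mir-48 show what lies at the strongest regions of the let-7 family, with the same capitals, on the minus strand that carries these genes.
mir-84, chrX:16024874-16025074: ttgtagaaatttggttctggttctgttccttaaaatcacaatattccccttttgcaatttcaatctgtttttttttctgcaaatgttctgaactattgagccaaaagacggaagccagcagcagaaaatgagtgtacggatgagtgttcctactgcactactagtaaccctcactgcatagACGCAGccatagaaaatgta
mir-241 and mir-48, chrV:14366634-14366834: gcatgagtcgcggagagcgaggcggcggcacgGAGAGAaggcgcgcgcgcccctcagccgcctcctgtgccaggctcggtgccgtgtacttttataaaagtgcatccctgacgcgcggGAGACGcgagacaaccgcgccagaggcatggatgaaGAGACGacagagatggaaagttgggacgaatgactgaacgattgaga

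The remaining pooled regions of the list were led by blmp-1, a zinc-finger gene of developmental timing, at pooled rank 259 and 3497 bp upstream. Its rank was 138 in replicate 1 but 17382 in replicate 2. kin-20, a casein kinase gene, had 5 pooled regions, the best at rank 505, and its intronic region at rank 668 ranked 109 in replicate 2 and was overlapped by nothing in replicate 1. lin-66 reached rank 524, the nuclear receptor gene nhr-25 rank 1159 and sea-2 rank 1219. The best regions of mab-10 (rank 2027, 29 bp upstream), dre-1 (2160), xrn-2 (2172), lep-5 (2488), myrf-1 (3033), ain-2 (3247) and apl-1 (3635) ranked behind these. The word GAGACGCAG was in 3 of the 41 pooled regions of the list, at ain-1, lin-66 and myrf-1, against 4.39% of all pooled regions. The Argonaute genes alg-1 and alg-2, and dcr-1, pup-2, daf-9, daf-36, nhr-23, nhr-85, lep-2 and the adult collagen gene col-19 had no pooled region.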

How the data were processed

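ZAG-1 ChIP-seq was done on 2 biological replicates of whole L4 worms. The 4 ce11 peak lists were used and the 4 ce10 lists were not, since coordinates were not converted. Per the file listings deposited beside them, a replicate list derives from the alignments of that replicate plus another file, and IDR peaks derive from the other 3 lists together. For aligner, caller and IDR threshold, the sources used here give nothing. The authors deposited a signal value per region and a −log10 q-value, called the significance score here. Both serve to rank regions within a list, and the significance score is also given for some pooled regions. Lists are not on 1 scale.

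Summits (start plus offset, 1-based) were placed in gene windows of the Ensembl 115 annotation of WBcel235. Chromosome names matched, and 0 regions ended beyond a chromosome. let-7 was found through its WormBase identifier in the RefSeq annotation. The nearest start is the annotated start of a protein-coding gene, 1 per gene, without internal transcript starts. Where features overlap, coding exon came first, then 5′ UTR, 3′ UTR, other exon and intron. Words were counted in 201 bases, overlapping matches included.

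With 1 group there is no contrast, so no test was made, and values stand beside those of all protein-coding genes. The named genes are the 8 members with every IDR and pooled region and their best replicate regions, the nearest gene of each pooled region, and the genes of the 32-gene pathway list. Other genes, the other replicate regions described, the pathway genes without a pooled region and the 9-base word were named after their values were seen. The members, words and lists were chosen with earlier results of these data known. Alternatives were the upstream distance, overlap in place of summit, nearest start, the stronger 50% of each list, single replicates, the significance score, word window and, added after seeing the data, RefSeq bounds. A further alternative required replicate regions to overlap by 50% of the shorter region. The window rule was tested on simulated summits at 200 genes and recovered all 200. Computation used Python 3.11.15, numpy 2.4.6, pandas 2.3.3 and matplotlib 3.10.9.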

Additional observations from a re-analysis of the deposited data

How the results depend on the processing

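No paired analysis was possible because the series has only 1 group. The timing genes with an IDR peak, 1 in all, became 0 in the stronger 50% of the IDR list, where the daf-12 peak at rank 197 is not included, and 0 with RefSeq gene bounds, where its summit lies 6778 bp upstream. Pooled regions of the timing genes with any of the 5 listed words, 11 of 16 within 100 bp of the summit, numbered 6 within 50 bp. The share of all 4010 pooled regions with any of the 5 is not given here, so these counts have no background. Single words were each in 8.73% to 20.4% of all pooled regions within 100 bp. With 1 replicate left out, the genes with a region numbered 7 either way, against 6 with regions of both and 5 with overlapping regions. The other alternatives for the counts over the 8 genes stayed within 1.5 times the values given. Among best ranks of single genes, 73 values stayed within 1.5 times and 7 did not. These were 3 of daf-12 with RefSeq bounds (pooled 790, replicate 1 1834, replicate 2 2636), 3 of hbl-1 with other upstream distances (pooled 1718 and replicate 1 1974 with 2000 bp, replicate 2 1772 with 10000 bp) and 1 of lin-14, tied for rank 1 by significance score in replicate 1. The lists carry no read counts, so depth cannot be set against any of these values.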

Other observations

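lin-42 had more copies of GAGACGCAG in its window than the other timing genes. The word, on either strand, occurred 7 times in its 24.1 kb, or 2.90 times per 10 kb, against 0.423 over the windows of all protein-coding genes, of which 71 had 7 or more. daf-12 had 2 copies, lin-14, hbl-1 and lin-29 had 1 each, and lin-28, lin-41 and lin-46 had 0. At lin-42, 2 of the 7 copies lay within 200 bp of a pooled summit, at 34 and 175 bp, both at the intronic region, and the nearest pooled summits to the other 5 were 2435 to 8524 bp away. Of those 5, 3 had a summit of a single replicate at 53 and 132 bp in replicate 2 and at 118 bp in replicate 1. The lin-42 window held 4 replicate 1 and 8 replicate 2 summits, from lists that include background. The share of all copies of the word this close to a replicate summit is not given here. The single copies at lin-14 and hbl-1 were 40 and 250 bp from a pooled summit, and that of lin-29 was 2809 bp from the nearest pooled summit but 161 bp from a replicate 2 summit. Of the copies at daf-12, 1 was 51 bp from the IDR summit and 1 was 5111 bp away. The word was chosen after the sequences were seen, and no test was made.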
